A study of Mus musculus with 6 samples.

Results

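The ephrin, slit and netrin guidance genes were examined, as ligands and receptors, in cultured mouse cells labelled aortic endothelial (MAEC) and Oct4 KO. A gene belonged to the set if it was annotated as protein-coding and its symbol was that of an ephrin (Efna or Efnb), an Eph receptor (Epha or Ephb), a slit (Slit1 to Slit3), a Robo receptor (Robo1 to Robo4), a netrin (Ntn1, Ntn3, Ntn4 or Ntn5) or a netrin receptor (Dcc, Neo1 and the Unc5 genes). The symbol rule found 38 of the 54532 genes in the count table, 14 ligands and 24 receptors, and a row named Ntn3 was not among them. The cells came from aortas of female and male mice with an endothelial-specific deletion of Oct4, the pluripotency factor encoded by Pou5f1, and each sex gave 3 bulk RNA-seq libraries. All 6 libraries carried the Oct4 KO genotype label and no treatment, so every comparison is of female against male cells of that label. Wild-type littermate cells were not analysed here. The Cre driver and the age of the mice are not given in the sources used here. No label ties the libraries of a sex to separate animals or cultures. The p-values therefore measure only the spread among these libraries, and that spread may be technical.

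Guidance cues were first known as signals that steer growing axons, and the same families pattern blood vessels. Ephrins are cell-surface ligands, GPI-anchored in the A class and transmembrane in the B class, and they bind the Eph receptor tyrosine kinases of neighbouring cells. Ephrin-B2 marks arterial and EphB4 venous endothelium. Slits are secreted proteins that bind Robo receptors. Netrins are secreted, laminin-related proteins that bind Dcc and neogenin (Neo1) as well as the Unc5 receptors, of which Unc5b is the one best known in vascular endothelium.

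Total counts were 19299742 to 23064738 per library. Pou5f1, the targeted gene, had 0 counts in all 6, which has no wild-type level beside it here. Levels are given as CPM, counts scaled to the TMM-adjusted library size, and fold changes are female over male from edgeR's quasi-likelihood test with Benjamini-Hochberg adjustment over all 14814 genes tested. The threshold for a call was an adjusted p of 0.05. The labelled cell type was checked on 12 defining endothelial genes: 10 stayed below 1 CPM in every one of the 6 libraries, Emcn, Cldn5 and Sox17 had 0 counts in all, and the summed level was 4.76 to 7.33 CPM in female and 4.99 to 5.66 CPM in male libraries. Of 7 fibroblast genes all were detected, with a summed level of 14330 to 15860 CPM in female and 6481 to 6931 CPM in male libraries. Dcn (means of 6368 and 442 CPM), Lum, Col3a1 and Pdgfra were called higher in female cells, Col1a2 and Pdgfrb lower, and Col1a1 was not called. The endothelial and fibroblast levels go against the endothelial label in both sexes. Whether the deletion, described as endothelial-specific, took place in these cells was not tested. Smooth muscle genes summed to 3.62 to 5.67 CPM in female and 22.2 to 25.7 CPM in male libraries, and Acta2 was nearly all of that sum in male cells. Pericyte genes summed to 125 to 146 and 261 to 279 CPM. The male sum was nearly all Rgs5 (means of 0.755 and 255.6 CPM in female and male), while Kcnj8, Abcc9, Cspg4 (108 and 3.18 CPM) and Notch3 were called higher in female cells. The part of these differences in cell-type markers in the results below was not tested. In bulk RNA, fewer cells of a type and less RNA per cell cannot be told apart.

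Of the 38 guidance genes, 26 passed the low-count filter. The female cells were called higher for 8 of them and lower for 11, and 7 were not called. This made 73.1% of the tested guidance genes, where 60.7% of all tested genes were called. A difference of at least 2-fold was called for 12 (46.2%), against 23.6% of all genes. Ligands and receptors divided unequally: 5 of 12 tested ligands were higher and 3 lower in female cells, and 3 of 14 tested receptors were higher and 8 lower. Among all genes 30.9% were called higher and 29.8% lower. The median log2 fold change was 0.49 over the tested ligands, -0.76 over the tested receptors and -0.01 over all tested genes. The ligand median falls between Efna3 and Efnb3, both under 10 CPM and not called. Female and male CPM ranges were separate for 19 of the 26, which is 73.1%, against 67.1% of all genes.

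**Figure D1:**
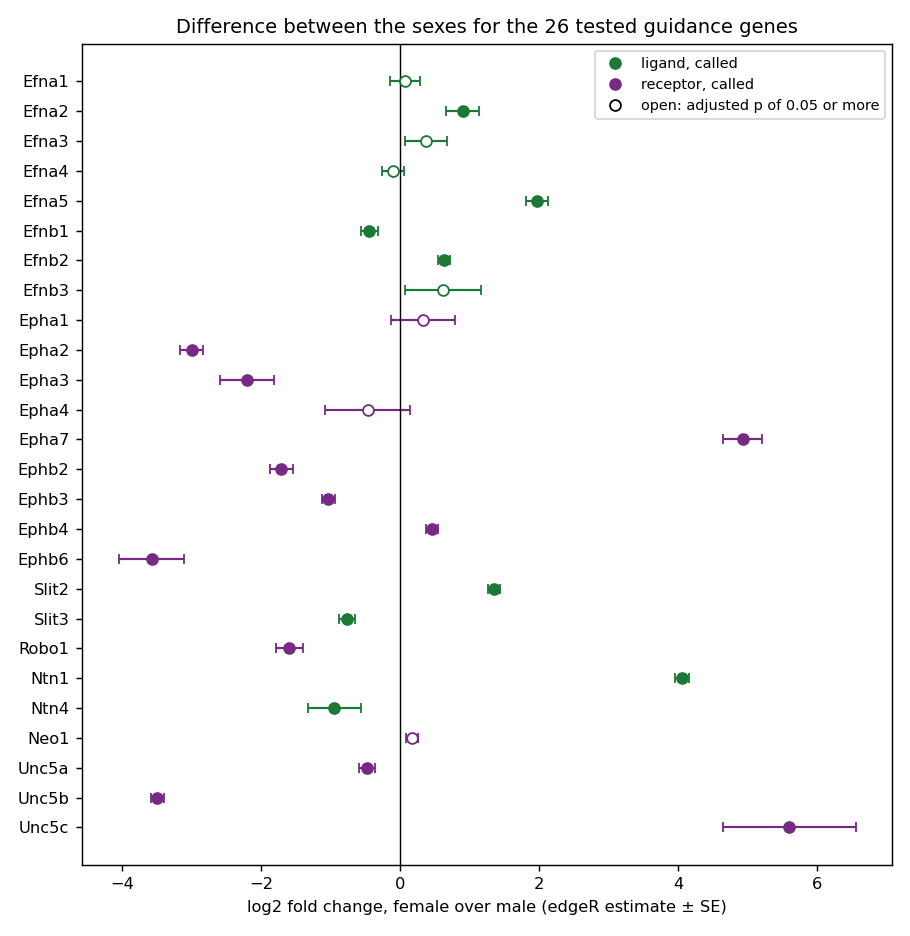
Log2 fold change, female over male, for the 26 tested guidance genes, with edgeR's estimate as a point and its SE as a bar. Ligands are green, receptors purple and open points have an adjusted p of 0.05 or more. Furthest to the right are the receptors Unc5c (5.60) and Epha7 (4.93), then the ligand Ntn1 (4.05). Furthest to the left are the receptors Ephb6 (-3.57) and Unc5b (-3.49), while Efna1 and Efna4 lie near the zero line.

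The other 12 genes had too few reads to test. Dcc, Unc5d, Robo4, Epha5, Epha6, Epha8 and Ephb1 had 0 counts in all 6 libraries. The limit, set at 3 counts, was 0.154 CPM in the library with the smallest TMM-adjusted size. Robo4 is the Robo receptor best known in endothelium, and Dcc the classical attractive netrin receptor. Epha10 and Ntn5 had 1 count each over the 6 libraries. Robo2, which encodes a neuronal Robo receptor, had 10, 18 and 2 female counts and 0, 0 and 3 male counts, a ratio of 10.9 (95% counting interval 3.38 to 55.7). Slit1 had 4, 5 and 0 female and 0, 1 and 2 male counts. Robo3 had 5, 9 and 1 counts in the male libraries and 0 in each female library. Such intervals and limits cover counting error only.

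The ligand gene Ntn1 and the receptor gene Unc5b differed between the sexes in opposite directions. Ntn1 (chromosome 11, 68209364 to 68400823, minus strand), which encodes netrin-1, was at 339, 338 and 308 CPM in the female libraries. In the male libraries it was at 19.8, 17.5 and 22.2 CPM. All female libraries were far above all male ones, and the difference was 16.5-fold (log2 4.05 ± 0.10 SE, edgeR adjusted p = 3.96e-15). Unc5b (chromosome 10, 60762593 to 60831581, minus strand), a netrin receptor gene of vessels and neurons, went the other way. It was at 44.9, 52.3 and 46.3 CPM in female libraries. The male libraries held 539, 507 and 567 CPM, again with no overlap. Unc5b was thus 11.2-fold higher in male cells (log2 -3.49 ± 0.09, edgeR adjusted p = 5.73e-15). Per length, Ntn1 was 6.46 to 7.53 times as abundant as Unc5b in each female library. In each male library Unc5b was 25.6 to 29.1 times as abundant as Ntn1.

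The remaining netrin receptors differed less, except Unc5c, which had few reads. Neo1, which encodes neogenin, a receptor for netrins and for repulsive guidance molecules, was at 170, 178 and 148 CPM in female and 138, 157 and 144 CPM in male libraries. The groups overlapped and Neo1 was not called (log2 0.17 ± 0.09, edgeR adjusted p = 0.094). Without female replicate 3 it was called higher (log2 0.25, adjusted p = 0.0227). After a correction for gene length, described below, it was called lower (log2 -0.21, adjusted p = 0.0327). Unc5a, a close relative of Unc5b known from neurons, was at 20.8, 19.9 and 17.3 CPM in female and 27.4, 26.4 and 27.1 CPM in male libraries. This smaller difference was called (log2 -0.48 ± 0.12, edgeR adjusted p = 0.0019). For Unc5c, also of the Unc5 family, 25, 11 and 26 female counts stood against 0, 1 and 0 male counts, a ratio of 67.5 (95% counting interval 11.7 to 2707). Its fitted log2 fold change was 5.60 ± 0.95 (edgeR adjusted p = 7.67e-05) and rests on that single male count: without male replicate 2 it was 7.44. Ntn4, a basement-membrane netrin gene, was low in both sexes, with 1.54, 1.18 and 0.962 female CPM against 1.66, 2.87 and 2.59 male CPM. Its call as lower in female cells (log2 -0.94 ± 0.39, edgeR adjusted p = 0.0441) did not hold without female replicate 2 or 3 or male replicate 2 or 3 (adjusted p = 0.0843, 0.127, 0.116 and 0.114), with the replicate block (0.0832) or with the length correction (0.0562).

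Summed per length, the netrins were at 52.7 ± 2.88 CPM per kilobase in female and 3.79 ± 0.38 in male cells (SD, n = 3 each). The netrin receptors were at 31.3 ± 2.51 and 109 ± 4.10 CPM per kilobase. The ligands therefore made up 62.8% ± 0.85 of the summed netrin and receptor level in female cells and 3.35% ± 0.21 in male cells. These sums were chosen with results known and carry no test. Within the receptors the leading gene changed: Neo1 took 60.5% ± 1.09 of the receptor level in female cells and 15.4% ± 1.46 in male cells. Unc5b took 24.5% ± 1.68 and 78.7% ± 1.55. Ntn1 held 99.4% ± 0.12 of the netrin level in female cells and 83.2% ± 4.65 in male cells, the remainder being nearly all Ntn4.

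**Figure D2:**
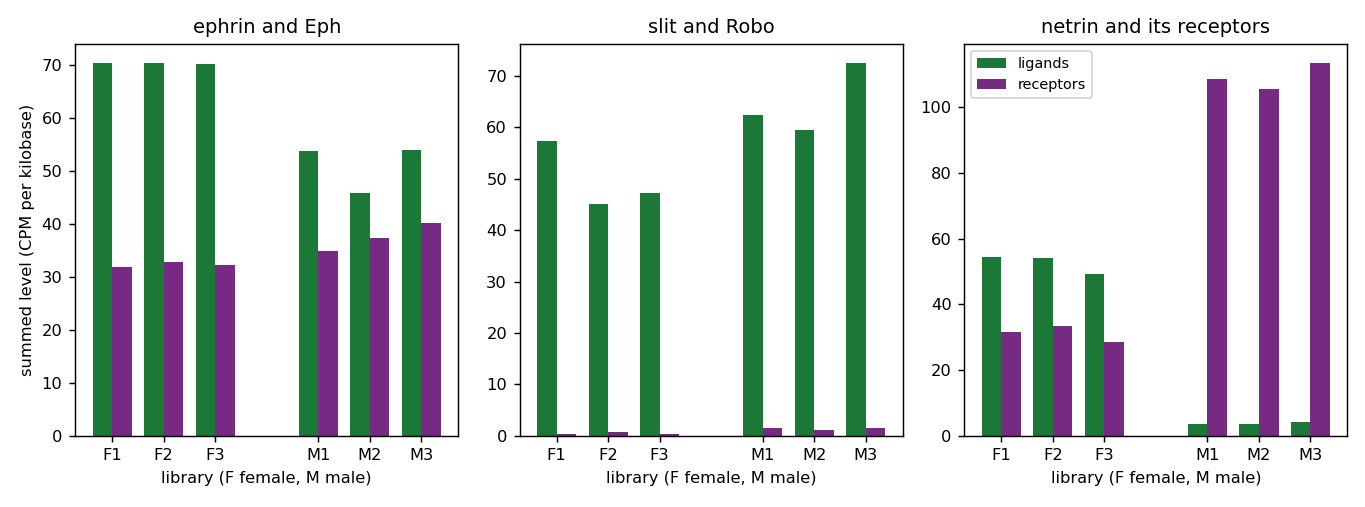
Summed level of ligands (green) and receptors (purple) in each library, in CPM per kilobase of gene length, for the 3 systems, each panel with its own axis from 0. In the netrin panel the ligand bar is the taller one in all 3 female libraries (F1 to F3) and the receptor bar in all 3 male libraries (M1 to M3).

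Of 8 tested ephrin genes, 3 were called higher in female cells, 1 lower and 4 not called. The called share was 50%, against 60.7% of all tested genes, of which 30.9% were higher and 29.8% lower. Efnb2 (chromosome 8, 8617434 to 8661242, minus strand), which encodes ephrin-B2, was the most abundant ephrin per length in both sexes. It was at 262, 269 and 247 CPM in female and 176, 146 and 179 CPM in male libraries. The female libraries all lay higher, by 1.55-fold (log2 0.63 ± 0.09, edgeR adjusted p = 7.9e-06). With the length correction the log2 difference was 0.36 (adjusted p = 0.000605). Efna5, a GPI-anchored ephrin gene, read 25.6, 27.3 and 25.2 CPM in female and 6.21, 8.26 and 5.504 CPM in male libraries. It had the largest difference among the ephrins, at 3.92-fold (log2 1.97 ± 0.16, edgeR adjusted p = 1.17e-08).

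Efna2, also of the GPI-anchored class, was at 11.4, 10.2 and 14.6 CPM in female and 4.97, 9.52 and 5.05 CPM in male libraries. Male replicate 2 lay close to the lowest female library. Efna2 was called higher (log2 0.90 ± 0.23, edgeR adjusted p = 0.00308), with a log2 difference of 1.25 without that male library. Efnb1, the X-linked gene of ephrin-B1, was the only ephrin called lower in female cells. It was at 16.6, 18.6 and 17.0 CPM in female and 24.7, 21.1 and 25.3 CPM in male libraries, with no overlap (log2 -0.44 ± 0.13, edgeR adjusted p = 0.00563). Efna4 was at 12.8, 13.9 and 16.0 CPM against 16.0, 12.4 and 17.5 CPM, and the sexes overlapped (log2 -0.11 ± 0.16, edgeR adjusted p = 0.571). Efna1, Efna3 and Efnb3 were under 10 CPM in both sexes and were not called. Efnb3 varied most, with 41, 7 and 34 female counts.

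**Figure D3:**
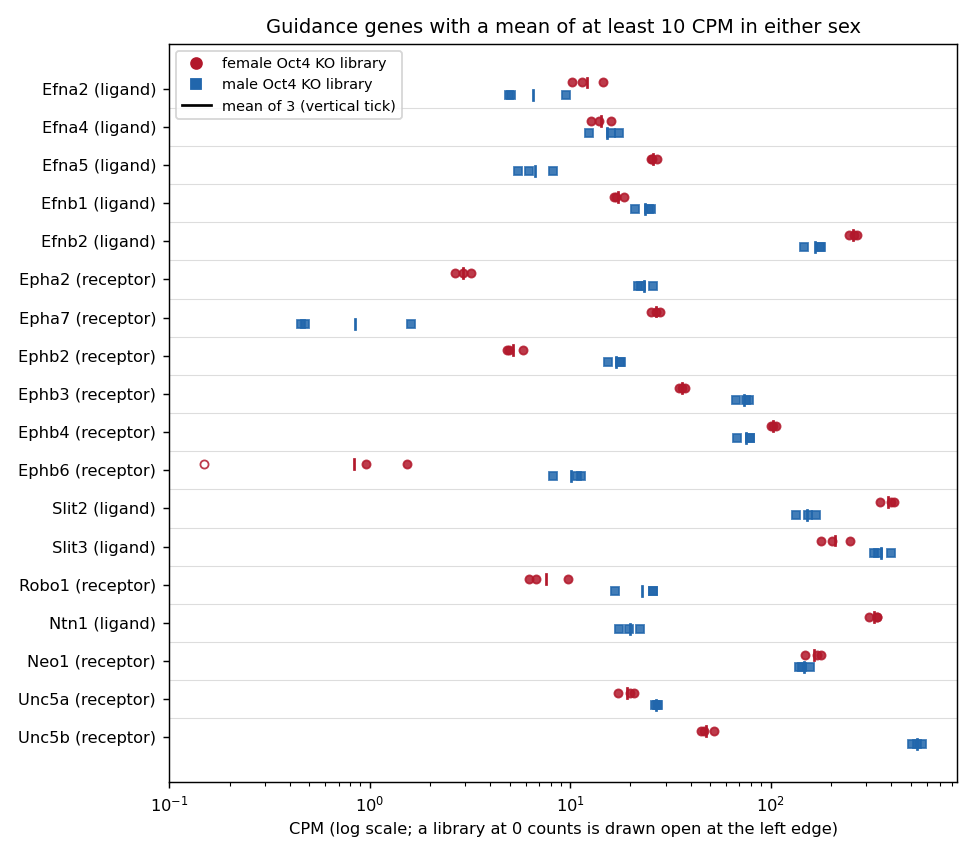
CPM in each library (log scale) of the 18 guidance genes that averaged 10 CPM or more in either sex. Red circles are female and blue squares male libraries, and short vertical ticks mark the means of 3. The sexes are separate for 16 of the 18 (88.9%) and overlap for Efna4 and Neo1. Over all tested genes, with no such limit on level, the share is 67.1%. Of the 8 tested guidance genes under 10 CPM, 3 are separate. An open circle at the left marks the female Ephb6 library with 0 counts.

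Of 9 tested Eph genes 5 were called lower in female cells, 2 higher (Epha7 and Ephb4) and 2 not called. The called share was 77.8%, against 60.7% of all tested genes, of which 30.9% were higher and 29.8% lower. Summed per length, EphB genes were at 28.4 ± 0.70 CPM per kilobase in female and 31.4 ± 2.20 in male cells (SD, n = 3). Their ranges overlapped. EphA genes were at 3.91 ± 0.16 in female and 6.06 ± 0.79 in male cells. Epha2 (chromosome 4, 141301240 to 141329384, plus strand), an EphA receptor gene of epithelial and endothelial cells, was at 2.65, 2.92 and 3.19 CPM in female libraries. The male libraries held 22.6, 21.7 and 25.8 CPM. All male libraries were higher, by 8.0-fold (log2 -3.0 ± 0.16, edgeR adjusted p = 7.84e-11). Epha7 (chromosome 4, 28813131 to 28967499, plus strand), an EphA receptor gene best known from the developing nervous system, showed the reverse. It was at 28.2, 26.9 and 25.4 CPM in female and 0.474, 0.453 and 1.60 CPM in male libraries. The fitted difference was 30.4-fold (log2 4.93 ± 0.28, edgeR adjusted p = 1.58e-10), and log2 5.83 without male replicate 3, whose level was the highest of the male ones. Epha3, another EphA gene, was lower in female cells, at 1.10 ± 0.66 against 5.12 ± 1.36 CPM (SD, n = 3; log2 -2.20 ± 0.39, edgeR adjusted p = 0.000112). Epha1 (female mean 1.53 CPM, male 1.204) and Epha4 (female mean 0.432 CPM, male 0.603) were not called. Epha1 overlaps Zyx on the opposite strand, a gene with 39014 counts in all against 174 for Epha1, so the reads of Epha1 are uncertain.

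Among the EphB receptors, Ephb4 (chromosome 5, 137350109 to 137378669, plus strand), the partner of ephrin-B2, was at 101, 107 and 103 CPM in female libraries. It was at 68.1, 78.8 and 78.9 CPM in male libraries, all below the female ones (log2 0.46 ± 0.08, edgeR adjusted p = 0.000168). Ephb3 was at 34.8, 37.6 and 36.0 CPM in female and 67.4, 75.8 and 78.3 CPM in male libraries, 2.04-fold higher in male (log2 -1.03 ± 0.09, edgeR adjusted p = 4.43e-08). Ephb2, which with Ephb3 is best known for cell positioning in the intestine, was at 4.82, 4.96 and 5.82 against 15.4, 17.7 and 17.9 CPM (log2 -1.71 ± 0.16, edgeR adjusted p = 9.11e-08). Ephb6, whose product lacks kinase activity, was at 1.54, 0 and 0.962 CPM in female and 10.9, 8.21 and 11.3 CPM in male libraries. Its log2 difference was -3.57 ± 0.47 (edgeR adjusted p = 5.12e-06), -4.37 without female replicate 1 and -3.0 without female replicate 2, the library at 0.

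The mixture of Eph receptors differed between the sexes, though the same 2 genes led in both. Per length, Ephb4 led in both sexes, with 69.1% ± 0.97 of the summed Eph level in female cells and 43.3% ± 1.85 in male cells (SD, n = 3). Ephb3 followed with 16.9% ± 0.36 and 29.7% ± 0.76. Next came Epha7 in female cells (8.42% ± 0.50, against 0.222% in male) and Epha2 in male cells (13.4% ± 0.80, against 1.94% in female). Efnb2 took 53.8% ± 2.21 and 47.5% ± 0.96 of the ephrin level. The ephrins made up 68.5% ± 0.35 of the summed ephrin and Eph level in female and 57.7% ± 2.81 in male cells.

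Efnb2 and Ephb4 were both higher in female cells, and their ratio per length was 1.62 to 1.76 in female and 1.26 to 1.74 in male libraries, so the ranges overlapped. Genes used as arterial and venous endothelial markers did not follow one pattern. With 10 of 12 defining endothelial genes below 1 CPM, these markers cannot be read as arterial or venous identity here. Of 7 arterial genes 3 were tested: Gja5 was higher, Gja4 and Notch4 lower in female cells, and the summed level was 7.22 to 8.51 CPM in female and 50.8 to 62.2 in male libraries. Dll4, Hey1 and Hey2 were under 1 CPM in all libraries. Of 4 venous genes Nr2f2, Flt4 and Nrp2 were higher in female cells and Aplnr was not tested. Their summed level was 479 to 501 CPM in female and 187 to 213 in male libraries. Nr2f2 and Nrp2 (means of 307 and 173 CPM) made up nearly all of the female venous sum. Notch4 (mean of 49.8 CPM) made up most of the male arterial sum.

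**Figure D4:**
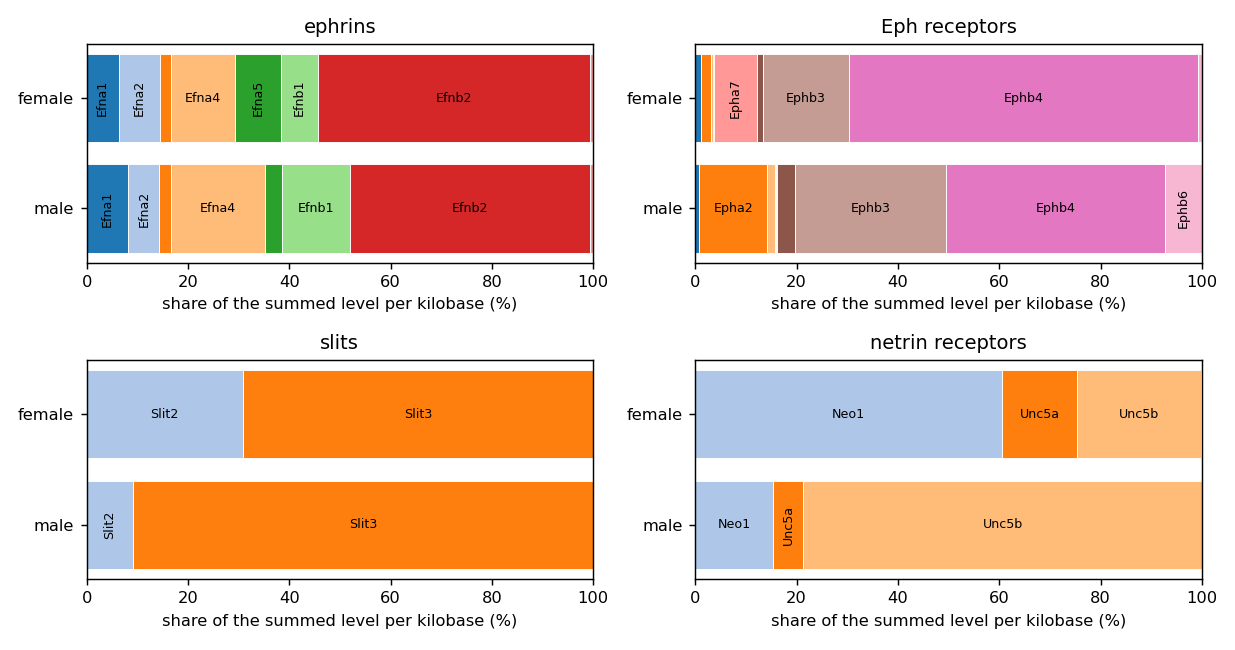
Share of each gene in the summed level per kilobase of its side, as the mean of 3 libraries per sex, for ephrins, Eph receptors, slits and netrin receptors. The larger segments carry their gene's name. The netrin receptor bars change from mostly Neo1 in female to mostly Unc5b in male cells, and among the Eph bars Epha7 is named only in female and Epha2 and Ephb6 only in male cells.

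The slit ligands moved in opposite directions. Slit2 (chromosome 5, 47983138 to 48307733, plus strand), which encodes a secreted Robo ligand, was at 413, 398 and 352 CPM in female libraries. It was at 154, 134 and 168 CPM in male libraries, all lower, and the difference was 2.55-fold (log2 1.35 ± 0.09, edgeR adjusted p = 1.74e-09). With the length correction it was log2 0.68 (adjusted p = 6.32e-07). Slit3 (chromosome 11, 35121224 to 35708507, plus strand), its secreted paralog, was at 250, 179 and 202 CPM in female libraries. It was at 342, 329 and 400 CPM in male libraries, with no overlap (log2 -0.76 ± 0.11, edgeR adjusted p = 1.21e-05). Robo1, the main Robo gene read here, was at 6.75, 9.72 and 6.23 CPM in female and 25.96, 16.8 and 25.8 CPM in male libraries. It was 3.03-fold higher in male cells (log2 -1.60 ± 0.19, edgeR adjusted p = 2.14e-06).

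Ligand far exceeded receptor in this family. Summed per length, slits were at 49.9 ± 6.58 CPM per kilobase in female and 64.8 ± 6.86 in male cells, and Robo genes at 0.488 ± 0.137 and 1.42 ± 0.29 (SD, n = 3). Slit2 made up 30.8% ± 3.44 of the slit level in female and 9.22% ± 0.42 in male cells. The annotated exons of Slit2 span 25433 bases against 9960 in its longest coding transcript. With the transcript length its share was 49.4% in female and 18.3% in male cells, an alternative chosen after seeing the data.

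Fold changes followed gene length over all genes. For the 10807 genes averaging 5 CPM or more, split into 5 equal bins of length, the median log2 fold change ran from -0.40 in the shortest bin to 0.39 in the longest. The length correction removes that trend within each library. All 19 called guidance genes kept their direction under it, and Slit2 was the only one whose fold moved by over 1.5 times. Ephb2 and Robo1, in the longest bin, were lower in female cells, with log2 differences of -2.20 and -2.17 after the correction.

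Promoter sequence is printed for some of the strongly changed or abundant members that have an entry, to show what lies just before their start sites. They were chosen after values were seen, and others with an entry, such as Slit3, Neo1 and Ephb6, are not printed. The entries are from RefSeq (GRCm38.p6), and 33 of the 38 genes had one. Each run below is the 150 bases before the annotated start, 5′ to 3′ on the gene's strand, with matches to the searched motifs in capitals: the octamer ATGCAAAT bound by POU factors such as OCT4, the GC box GGGCGG, the CCAAT box CCAAT and the TATA box TATAAA, each on both strands.
Unc5b, chr10:60831582-60831731, minus strand: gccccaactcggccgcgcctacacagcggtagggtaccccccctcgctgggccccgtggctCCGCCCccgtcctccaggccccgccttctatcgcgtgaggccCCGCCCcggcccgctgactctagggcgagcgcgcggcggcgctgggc
Epha7, chr4:28812981-28813130, plus strand: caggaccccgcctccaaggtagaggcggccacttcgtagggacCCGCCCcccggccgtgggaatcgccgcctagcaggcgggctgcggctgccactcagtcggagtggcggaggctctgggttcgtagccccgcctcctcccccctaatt
Epha2, chr4:141301071-141301220, plus strand: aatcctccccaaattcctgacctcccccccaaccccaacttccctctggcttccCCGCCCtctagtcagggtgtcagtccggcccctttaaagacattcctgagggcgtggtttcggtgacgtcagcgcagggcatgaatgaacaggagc
Slit2, chr5:47983005-47983154, plus strand: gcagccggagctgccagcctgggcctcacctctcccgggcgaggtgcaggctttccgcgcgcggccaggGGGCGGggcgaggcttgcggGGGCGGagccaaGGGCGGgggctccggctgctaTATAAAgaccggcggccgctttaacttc
Efnb2, chr8:8661243-8661392, minus strand: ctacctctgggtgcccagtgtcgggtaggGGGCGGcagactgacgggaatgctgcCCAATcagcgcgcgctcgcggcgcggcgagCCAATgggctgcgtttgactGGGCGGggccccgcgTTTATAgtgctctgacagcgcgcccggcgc
Ephb4, chr5:137349959-137350108, plus strand: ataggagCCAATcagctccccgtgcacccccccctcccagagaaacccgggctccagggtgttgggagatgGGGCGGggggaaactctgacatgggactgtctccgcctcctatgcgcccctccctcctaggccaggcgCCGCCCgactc

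All 6 stretches hold at least 1 GC box, in genes higher in female cells (Epha7, Slit2, Efnb2 and Ephb4) and in genes lower in them (Unc5b and Epha2). Over the 250 bases before the start, 23 of the 33 guidance promoters held a GC box (69.7%), against 32.9% of 27025 promoters of the same length, 1 per gene. The 2 sets are not alike. The larger set was not limited to protein-coding genes and took the first entry of each gene. For guidance genes the entry nearest the gene start was taken. The median GC content was 65.6% in the guidance promoters and 52.0% in all. A TATA box was in 2 of the 33 (Slit2 and Efnb2; 6.06%, against 13.0% of all) and a CCAAT box in 13 (39.4%, against 34.5%). The octamer was in 0 of the 33 and in 1.61% of all, which says only that these letters are not in this window.

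Genes that act beside these ligands and receptors were counted from 3 lists. Of 26 genes of Eph and ephrin signalling, 24 were tested, 13 were higher and 5 lower in female cells. Over all tested genes 30.9% were called higher and 29.8% lower. Vav3, an exchange factor gene, averaged 32.1 ± 1.52 female and 7.91 ± 0.98 male CPM (SD, n = 3; log2 2.02 ± 0.13, edgeR adjusted p = 1.14e-09). Sdcbp, the gene of syntenin, a PDZ protein that binds ephrin-B and syndecan tails, was at 362 ± 14.9 and 165 ± 10.7 CPM. The kinase genes Fyn (67.2 and 40.3 CPM) and Abl2 (83.6 and 51.2 CPM) were also higher in female cells.

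All 24 Robo effectors and slit cofactors were tested, 14 higher and 5 lower (30.9% and 29.8% over all tested genes). Tll1, which encodes a tolloid-like metalloprotease, averaged 2.91 ± 0.52 female and 90.7 ± 15.3 male CPM (log2 -4.96, edgeR adjusted p = 6.71e-14). Sdc3, a heparan sulfate proteoglycan gene, was at 435 ± 8.89 and 174 ± 15.3 CPM. Ext1, which encodes a heparan sulfate polymerase, was lower in female cells (112 against 224 CPM), as was the Robo-binding GTPase activator gene Srgap3 (36.7 against 84.8 CPM).

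Of 25 netrin receptor effectors and other ligands of these receptors, 21 were tested, 14 higher and 1 lower. The shares over all tested genes were again 30.9% and 29.8%. Flrt2, a membrane ligand gene of Unc5 receptors, averaged 426 ± 31.4 female and 94.5 ± 5.18 male CPM (log2 2.17, edgeR adjusted p = 8.12e-13). Trio, an exchange factor gene, was at 155 ± 20.5 and 66.3 ± 13.8 CPM (log2 1.22, and 0.57 with the length correction). The adaptor gene Appl1 was at 56.5 ± 7.08 and 26.5 ± 1.41. Maged1, which encodes a partner of Unc5a, was the one lower, at 373 ± 8.21 and 642 ± 46.9 CPM. Over the 3 lists, 52 of 69 tested genes were called (75.4%, against 60.7% of all), 41 higher and 11 lower. The median log2 fold change of the 69 was 0.41. With the length correction 35 were higher and 20 lower.

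**Figure D5:**
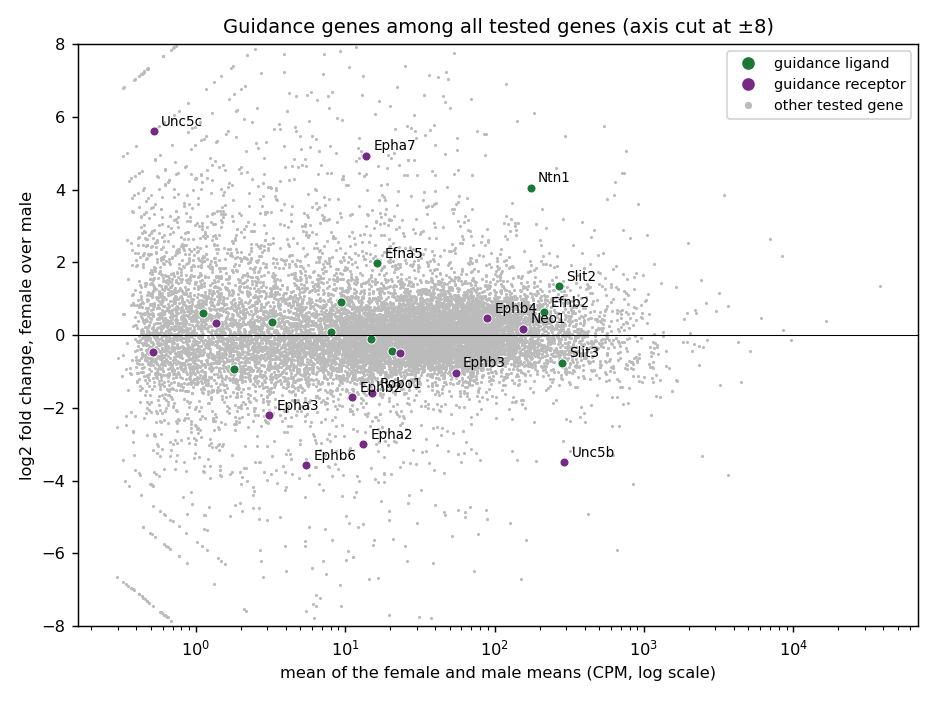
Log2 fold change, female over male, against the mean of the female and male CPM (log scale) for all tested genes (grey), with guidance ligands in green and receptors in purple; the vertical axis ends at 8 in each direction. Ntn1 and Unc5b lie at the edges of the cloud for genes of their abundance.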

How the data were processed

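The deposited table holds raw counts per gene for 6 libraries, not normalised by the authors, from HISAT2 2.0.5 alignment to mm10 and featureCounts 1.5, per the submitters' processing notes. The strand setting and the treatment of multi-mapping reads are not given in the sources used here. Sense and antisense reads of 1 locus therefore cannot be separated. Columns were assigned by library name, with 0 other sample columns and 0 rows lacking a gene name. Within a sex, chi-square per degree of freedom between libraries was 7.42 to 16.0, above counting noise, so no pair was merged as 1 library given again; this does not show separate cultures or animals. The main test was edgeR 4.0.16 under R 4.3.3, using filterByExpr, TMM, glmQLFit and glmQLFTest with a sex term alone; p-values are two-sided. The SE is the log2 fold change over the square root of F. The fit was tested on simulated data. The length correction fits a spline with 4 degrees of freedom of each library on log2 gene length and uses it as an offset. Levels per length divide CPM by the table's gene length. Alternatives included DESeq2 1.42.0, limma-voom (limma 3.58.1), other scalings and filters, and leaving out each library.

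The guidance genes and lists were chosen with earlier results of these data known. Members with a mean of at least 10 CPM in either sex are given in every library, lower ones by counts or where called, and each pathway list by up to 4 called genes of smallest adjusted p. The promoters shown and the pairs of genes set against each other were chosen after values were seen.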

Additional observations from a re-analysis of the deposited data

How the results depend on the processing

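The counts of called guidance genes stayed at 7 to 9 higher and 9 to 12 lower under every alternative run, and 18 of the 19 called genes kept call and direction in each that tested them; the exception was Ntn4, and the filter at 5 CPM left Epha3, Unc5c and Ntn4 untested. With the replicate block the counts were 8 and 10, and 8525 genes were called in all against 8993. The labels do not say that a number marks a shared animal or day. Deviations of same-numbered libraries from their sex mean had correlations of -0.025, -0.11 and -0.16 over 10807 genes. Differently numbered pairs ran from -0.07 to 0.186. Deviations from a mean of 3 libraries are tied to each other, so these values cannot show whether a number marks a shared origin. Ntn4 was the only guidance gene whose call the block changed. The uncalled genes Efna1, Efna4 and Neo1 changed sign. Efna1 (0.07) was at -0.0037 with upper quartile scaling and -0.046 with total counts, and ran from -0.14 to 0.31 when a library was left out. Efna4 (-0.11) was at 0.24 with the length correction and 0.26 with that correction and the block, and Neo1 (0.17) at -0.21 and -0.21. Of the other pathway genes, 20 were lower with the length correction, with or without the block, against 11. Without division by gene length the ligand share was 65.7% and 52.6% for ephrins in female and male cells, 58.6% and 3.02% for netrins, and 95.7% for slits in male cells. With the longest coding transcript, chosen after seeing the data, it was 69.9% for ephrins and 61.4% for netrins in female cells and 96.5% for slits in male cells. The cause was not tested. Total counts moved the median of all genes to -0.13. Depth limits the 12 untested genes and those near 1 CPM.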

Other observations

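The GPI-anchored ephrin genes Efna1, Efna3 and Efna4 are neighbours on chromosome 3, with gaps of 32757 and 10425 bases, and all 3 were uncalled. Efna2 and Efna5, on other chromosomes, were both higher in female cells. Efna1 and Efna3 were under 10 CPM, where 3 of the 8 tested guidance genes were called. The called share was 60.7% over all tested genes. Any part of chromosomal position was not tested. Gm15998, on the strand opposite to Efna3, had 52 counts against 404 for Efna3. Robo4 and Robo3 lie 554 bases apart on chromosome 9, and neither could be tested.

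Several other ligands of the netrin receptors, named after their values were seen, were called higher in female cells. Draxin averaged 10.4 ± 3.64 female and 3.48 ± 0.71 male CPM (SD, n = 3; edgeR adjusted p = 6.44e-05), Flrt3 1.54 ± 0.44 and 0.133 ± 0.191 (0.000622), and Rgma 125 against 95.4 (0.00135). Rgmb, at 316 and 334 CPM, was not called (0.422).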
